A study of Mus musculus with 3 samples.

Results

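The genes that make and use nicotinamide adenine dinucleotide (NAD) were read in muscle stem cells of the mouse hindlimb. The set held 10 genes, chosen by symbol, of 20308 gene symbols measured: Nampt, Nmnat1, Nmnat2 and Nmnat3, which make NAD from nicotinamide, Nadk, which phosphorylates NAD, Nnmt, which methylates nicotinamide, and the NAD consumers Parp1, Parp2, Cd38 and Bst1. All 10 had a row. Transcripts were measured by RNA sequencing in 3 libraries of satellite cells, the stem cells that sit along muscle fibres, from Pax7-ZsGreen mice aged 3 months. In these mice the green fluorescent protein ZsGreen reports Pax7, the transcription factor that marks satellite cells, and about 200000 fluorescent cells per sample were sorted from digested muscle of several animals. The 3 libraries formed 1 group, with no treatment named, so the data hold no contrast between conditions. The sample labels name the tibialis anterior, whereas the series text names hindlimb muscles.

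NAD carries electrons in energy metabolism and is also a substrate that several enzymes break down to nicotinamide. In mammals most cells recover that nicotinamide through a salvage route: nicotinamide phosphoribosyltransferase (Nampt) makes nicotinamide mononucleotide, and the NMNAT enzymes (Nmnat1 in the nucleus, Nmnat2 at Golgi membranes and in axons, Nmnat3 in mitochondria) turn it into NAD. Other routes start from tryptophan, nicotinic acid or nicotinamide riboside, and in muscle stem cells NAD is studied for its link with sirtuins, mitochondria and ageing.

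Values are TPM, a share of each library's transcripts that allows for their length. Setting levels of different genes side by side assumes that reads were divided correctly among genes. Values are given as mean ± SD (n = 3) for genes above 0 in every library, and library by library for the others. TPM keeps no read totals, so depth is unknown and a level is a share of RNA, in which fewer expressing cells and less RNA per cell cannot be told apart. Whether each library had its own pool of animals is not stated in the labels, so the spread behind the p-values is that of these 3 samples and may be technical. A 0 can be a failed estimate, since Rps27, a ribosomal protein gene used by every cell, was also listed at 0 in all 3 libraries.

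The sort was checked against cell type markers. All 10 satellite cell markers were above 10 TPM (limma, Benjamini-Hochberg), and they summed to between 6815 and 7356 TPM per library, of which Sdc4 gave 3915 to 4272 TPM. Over all genes tested, 38.2% were above 10 TPM. Markers of other cells were present too. Of 10 fibro-adipogenic progenitor markers 7 were above 10 TPM (sum 2231 to 2560). The highest were Gsn at 888 ± 104 TPM, Col3a1 at 585 ± 29.9 TPM and Dpt at 572 ± 16.7 TPM. Pdgfra, a receptor used to define those cells, had 4.98, 0.11 and 0.06 TPM in replicates 1, 2 and 3. Of 8 endothelial markers 7 were above 10 TPM (sum 1572 to 2876, most of it Fabp4). Of 10 leukocyte markers (sum 262 to 343) 2 were, Cd74 at 133.6 to 165 TPM and Lyz2 at 54.2 to 86.4 TPM. The T cell marker Cd3e was listed at 0 in every library. Sums were 227 to 283 TPM for 6 pericyte and smooth muscle markers (3 above 10 TPM), 89.4 to 128 for 5 Schwann cell markers (2), 75.7 to 177 for 7 mature fibre markers (1) and 139 to 453 for 5 erythroid markers (2). The part of such cells in the levels below was not tested.

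Of the 10 genes, 5 lay above 1 TPM and 4 of these also above 10 TPM. Nampt, Nnmt, Parp2 and Nadk were the 4 above 10 TPM, Parp1 lay above 1 TPM only, Nmnat1, Nmnat2, Nmnat3 and Cd38 were not decided at 1 TPM, and Bst1 was listed at 0 throughout. The calls come from limma's moderated test of log2(TPM + 0.1) against each level, two-sided, adjusted by Benjamini-Hochberg over all 12822 genes above 0 in at least 1 library, with a threshold of 0.05. Over all genes tested, 60.8% were called above 1 TPM and 38.2% above 10 TPM, so the shares among the 9 members tested were near the background. No member was called below 1 TPM (limma; 0 of 9 also at an unadjusted p under 0.05), against 2.18% of all genes tested. The median level of all 10 members, Bst1 at 0 included, was 5.53 TPM, against 11.5 TPM over all genes tested. Together the 10 genes held 201, 199.6 and 176 TPM in replicates 1, 2 and 3, and Nampt with Nnmt made up 69.9% of the mean sum.

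**Figure D1:**
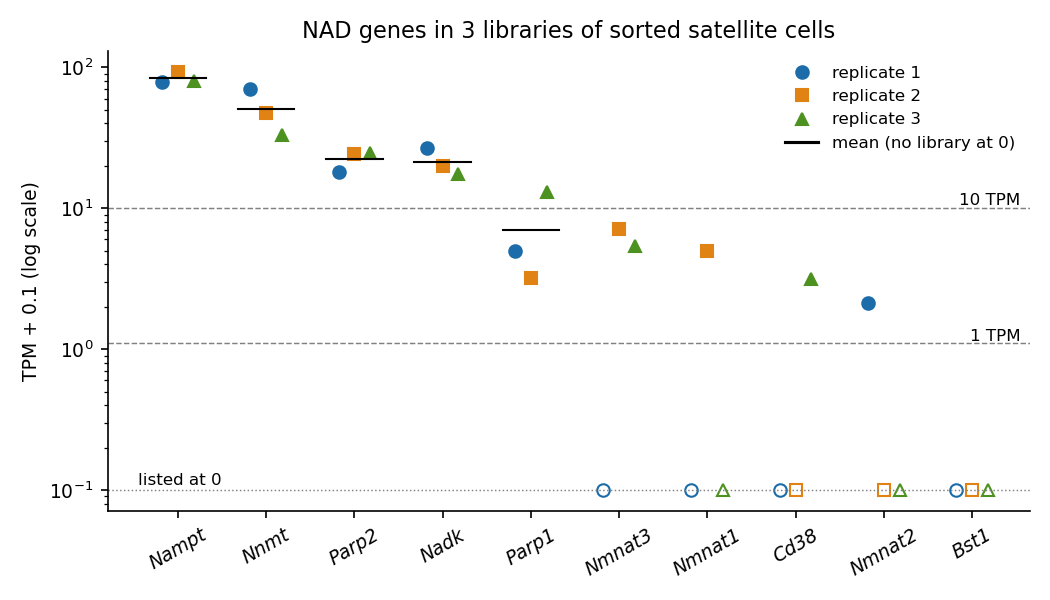
Level of each of the 10 genes in each library, as TPM + 0.1 on a log axis, with open symbols for values listed at 0, short bars for the mean of genes above 0 in all 3 libraries, and dashed lines at 1 and 10 TPM. Nampt, Nnmt, Parp2 and Nadk lie above 10 TPM in every library, Parp1 spans 3.08 to 12.9 TPM, and the other 5 genes are at 0 in at least 1 library.

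For Nampt, the highest member, and Parp1, the low one of the PARP pair described below, the bases before a RefSeq start are shown. In GENCODE M21 neither window overlapped an exon, and the Parp1 window lies before the gene. The Nampt window lies inside the gene's annotated span, in an intron of 1 transcript that begins 540 bases before the window. Each run is 250 bases long (GRCm38.p6), 5′ to 3′ on the plus strand, at chr12:32820085-32820334 for Nampt and chr1:180568641-180568890 for Parp1. Capitals mark matches on either strand to the GC box GGGCGG and the E-box CACGTG, which did not overlap each other.
Nampt: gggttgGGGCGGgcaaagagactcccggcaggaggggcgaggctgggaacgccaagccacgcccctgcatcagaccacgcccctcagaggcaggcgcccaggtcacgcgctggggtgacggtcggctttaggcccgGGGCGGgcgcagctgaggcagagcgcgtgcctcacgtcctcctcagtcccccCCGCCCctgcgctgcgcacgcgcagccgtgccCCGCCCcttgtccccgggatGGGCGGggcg
Parp1: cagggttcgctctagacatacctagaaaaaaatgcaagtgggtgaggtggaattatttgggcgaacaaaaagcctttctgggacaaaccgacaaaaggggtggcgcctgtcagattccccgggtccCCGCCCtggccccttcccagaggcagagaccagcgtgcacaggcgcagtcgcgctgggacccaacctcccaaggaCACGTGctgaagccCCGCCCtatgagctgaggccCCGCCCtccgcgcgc
Nampt held 5 GC box matches and no E-box, and Parp1 held 3 GC box matches and 1 E-box. A GC box occurred in 32.7% and an E-box in 6.02% of 32841 RefSeq windows of this length. The TATA box letters TATAAA, found in 12.4% of windows, were in neither. Both windows were rich in CpG, with an observed over expected ratio of 0.756 for Nampt and 0.676 for Parp1, against a median of 0.374 over all windows. The Cd38 window, at 0.0783, was the lowest of the 8 members with a window, and it lies inside the gene's annotated span. The Nmnat3 window and the Nadk window of ratio 0.758 lie inside their genes too. The windows of Nmnat2, Parp2, Nadk (ratio 0.302) and Nmnat1 (ratio 0.812) run past the annotated gene start in part. The other ratios were 0.836 for Parp2, 0.816 and 0.812 for Nmnat1, and 0.761 for Nmnat2. They were 0.758 and 0.302 for Nadk and 0.719 for Nmnat3. Low members such as Nmnat1 and Nmnat2 thus had ratios above that of Nampt, and CpG was not tested against level. A match describes letters and shows no binding.

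Nampt, the rate-limiting enzyme of nicotinamide salvage (chromosome 12, 32819545 to 32853349, plus strand, GRCm38), had 79.1, 93.1 and 80.5 TPM in replicates 1, 2 and 3. The 3 libraries lay close together, within 1.18-fold from lowest to highest. Its mean was 84.2 ± 7.73 TPM, higher than 86.1% of the genes tested, and it was above 10 TPM (limma adjusted p = 3.49e-08). Its SD on the log2(TPM + 0.1) scale was 0.13, against a median of 0.26 among the 500 genes closest to it in level. The genes with the most similar values over the 3 libraries, by Euclidean distance on that scale, were Larp1 at 81.1, 96.7 and 79.5 TPM (distance 0.0673) and Dmtf1 at 80.1, 88.7 and 78.9 TPM (0.0777). Here and below, this distance includes the level itself and is the smallest among 20307 genes over 3 values. Shared regulation was not tested. The locus of a long noncoding RNA, Gdap10, lies within the Nampt gene on the same strand and was not analysed here.

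The NMNAT genes, whose enzymes act after Nampt, were low and irregular. Nmnat3, the mitochondrial form (chromosome 9, 98287435 to 98420438, plus strand), was listed at 0, 7.08 and 5.29 TPM in replicates 1, 2 and 3. Nmnat1, the nuclear form (chromosome 4, 149467572 to 149485202, minus strand), was listed at 0, 4.85 and 0 TPM. Nmnat2, known mainly from neurons (chromosome 1, 152954993 to 153119261, plus strand), was listed at 2.03, 0 and 0 TPM. No form was above 0 in all libraries, and a different form was the highest in replicate 1 than in the other two. None was decided against 1 TPM (limma adjusted p = 0.806, 0.426 and 0.269 for Nmnat3, Nmnat1 and Nmnat2). Nampt was higher than Nmnat1 in 3 of 3 libraries (exact sign-flip permutation p = 0.25, two-sided), Nmnat1 was lower than Nmnat3 in 2 and equal at 0 in the other (p = 0.5), and Nmnat1 and Nmnat2 were each the higher in 1 library (p = 1). Without replicate 1, where it was at 0, Nmnat3 was above 1 TPM (limma adjusted p = 0.0123). Nmnat1 and Nmnat2 were called below 10 TPM (limma adjusted p = 0.0288 and 0.0130), as was Cd38, 3 of 9 members against 17.5% of all genes tested. These 3 calls rested on the settings: with any 1 replicate left out no gene at all was called below 10 TPM, and with a pseudocount of 0.01 none of the 3 was.

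Zeros of this kind were common at such levels. Of 1557 genes whose highest library was between 2 and 5 TPM, 71.0% were listed at 0 in 1 or 2 libraries and 36.7% in 2. Nmnat1, Nmnat2 and Cd38 belong to this range. Of 1828 genes with a highest value between 5 and 10 TPM, as for Nmnat3, 43.5% were at 0 in 1 or 2 libraries. Among 1500 genes peaking between 50 and 100 TPM, the range of Nampt and Nnmt, the share was 0.667%. Of the 31-base words in the longest Nmnat1 transcript, 9.29% recur in other annotated genes, so reads from this gene could be divided wrongly, and the share was at most 3.08% for the other 9 members.

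**Figure D2:**
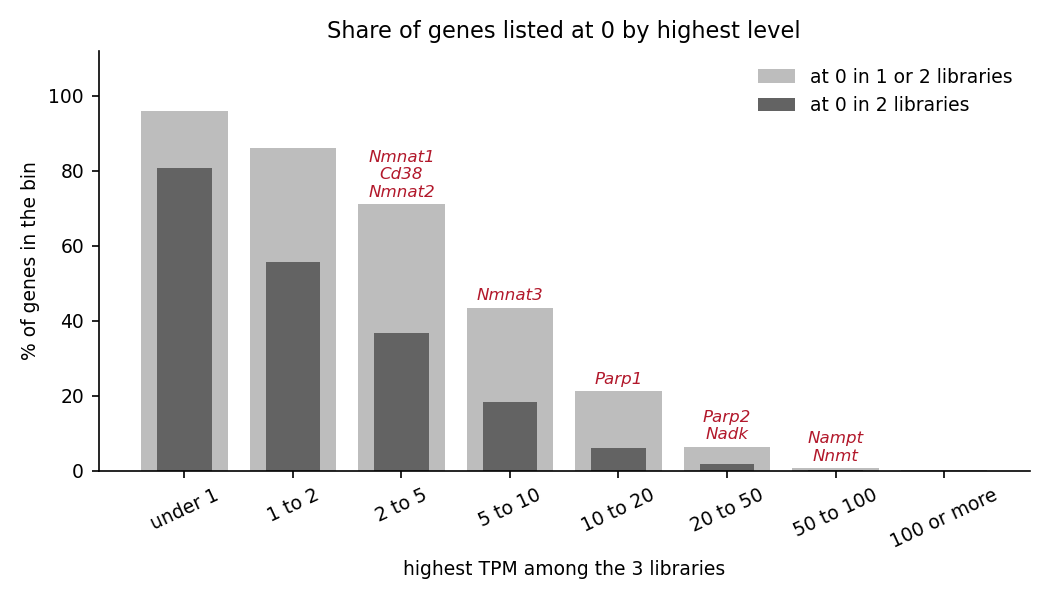
Share of genes listed at 0 in 1 or 2 libraries (light bars) and in 2 libraries (dark bars), in % of the genes in each bin, by the highest TPM among the 3 libraries, with the members above 0 named over their bin. The share is 71.0% in the bin of Nmnat1, Cd38 and Nmnat2 and 0.667% in the bin of Nampt and Nnmt.

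Routes to NAD that bypass Nampt were read from lists of other pathway genes. Of 9 genes of the kynurenine pathway, by which tryptophan can be turned into NAD, 4 were tested. These 4 were not decided at 1 TPM, a level that 60.8% of all genes tested were called above. They were called below 10 TPM (limma, Benjamini-Hochberg), as were 17.5% of all genes tested. No gene kept such a call with any 1 replicate left out. Listed at 0 in every library were 5: Tdo2, Ido1, Kmo, Haao and Acmsd, whose enzyme diverts an intermediate away from NAD. The other 4 were above 0 in 1 library each, with Kynu at 3.54 TPM in replicate 2, Afmid at 3.08 and Ido2 at 2.68 TPM in replicate 3, and Qprt, which makes nicotinic acid mononucleotide, at 2.42 TPM in replicate 1. The nicotinic acid route gave as little: Naprt1 (now Naprt), its first enzyme, was listed at 0.9, 0 and 0 TPM and Nadsyn1, its last, at 0, 0.56 and 0 TPM. Both were not decided at 1 TPM and called below 10 TPM, with the same limit. Of the 31-base words, 64.4% for Afmid and 13.2% for Naprt recur in other annotated genes, so reads of both could be divided wrongly. Nampt was higher than Naprt1 in 3 of 3 libraries (exact sign-flip permutation p = 0.25, two-sided, the smallest 3 libraries allow, 0.4 adjusted over the 8 pairs compared).

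Genes of the nicotinamide riboside route were above 1 TPM in part. Of 8 listed, 7 were tested, 4 were above 1 TPM and 2 above 10 TPM (limma, Benjamini-Hochberg), near the 60.8% and 38.2% over all genes, and levels were not compared between routes by a test. Nmrk1, a kinase that makes nicotinamide mononucleotide from the riboside, had 10.7, 7.64 and 14.8 TPM and was above 1 TPM, while the muscle-enriched kinase Nmrk2 was listed at 0 in all libraries. Pnp, a phosphorylase that splits nucleosides including nicotinamide riboside, averaged 86.3 ± 12.4 TPM and the nucleoside transporter Slc29a1 94.6 ± 31.5 TPM, and these 2 were above 10 TPM. Pnp2 had 1.79, 0 and 36.9 TPM. Pnp, Pnp2 and the gene Gm49342 overlap on the same strand of chromosome 14, and 27.8% of the 31-base words of Pnp and 45.2% of those of Pnp2 recur in other genes, so the division of reads among them is uncertain. Slc12a8, described in mouse intestine as a carrier of nicotinamide mononucleotide, averaged 21.4 ± 12.7 TPM and was above 1 TPM. The ectonucleotidase Nt5e (CD73) averaged 3.99 ± 1.27 TPM and was not decided, and the nucleotidase Nt5c was listed at 7.08, 0 and 18 TPM and was not decided either.

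Nadk, the cytosolic kinase that makes NADP from NAD (chromosome 4, 155562378 to 155591001, plus strand), had 26.6, 19.8 and 17.3 TPM. It averaged 21.2 ± 4.83 TPM and was above 10 TPM (limma adjusted p = 0.0124). Without replicate 1, its highest library, that call was lost (limma adjusted p = 0.0970), while it stayed above 1 TPM. Nadk2, the mitochondrial kinase, had 4.37, 10.01 and 4.47 TPM and was above 1 TPM only. Nadk exceeded Nadk2 in 3 of 3 libraries, by 1.83 ± 0.81 on the log2(TPM + 0.1) scale (SD, n = 3; 3.55-fold in TPM + 0.1), with the same exact permutation p of 0.25. Slc25a51, the carrier that brings NAD into mitochondria, averaged 38.8 ± 5.20 TPM and was above 10 TPM. Nudt12, a hydrolase of NADH, was listed at 0 in all libraries, and the related Nudt13 at 0, 6.19 and 0.17 TPM.

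Nnmt, which removes nicotinamide by methylating it with S-adenosylmethionine (chromosome 9, 48591877 to 48605153, minus strand), was the second highest member. It had 70.4, 47.7 and 32.8 TPM in replicates 1, 2 and 3, a 2.15-fold span. Its mean was 50.3 ± 18.9 TPM, and it was above 10 TPM (limma adjusted p = 1.89e-05). Nnmt was lower than Nampt in 3 of 3 libraries, by a mean log2 difference of -0.81 ± 0.58 (SD, n = 3; exact sign-flip permutation p = 0.25, adjusted 0.4). The gap was widest in replicate 3 (-1.29) and narrowest in replicate 1 (-0.17). Its log2 SD of 0.55 exceeded that of 79% of the 500 genes closest in level, yet its spread was not called variable (unadjusted p = 0.162). Beside it, the fibro-adipogenic markers summed to 2560, 2447 and 2231 TPM and the satellite cell markers to 7356, 7343 and 6815 TPM in the same libraries, and their part in the Nnmt level was not tested. The most similar genes over the 3 libraries were Map3k3 at 72.7, 46.2 and 33.9 TPM (distance 0.0803) and Cdk2ap2 at 66.6, 48.8 and 33.6 TPM (0.0929).

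The genes of the methyl donor cycle that serves Nnmt were listed with those that oxidise nicotinamide. This joint list had a median of 8.76 TPM over 7 genes, 1 of them at 0 throughout, against 11.5 TPM over all genes tested. The median was the level of the oxidase Aox1, and the gene at 0 was Aox4. The means of the methyl donor genes Mat2a, Ahcy and Mat2b all lay above 11.5 TPM. Of 6 genes of the joint list tested, 4 were above 1 TPM and 2 above 10 TPM (limma, Benjamini-Hochberg, against 60.8% and 38.2% over all genes). Mat2a, which makes S-adenosylmethionine, averaged 939 ± 59.2 TPM, and Ahcy, which clears the spent donor, averaged 139.6 ± 26.5 TPM. Both were above 10 TPM, but 79.4% of the 31-base words of Ahcy and 12.6% of those of Mat2a occur in other annotated genes. Mat2b, the regulatory subunit, had 3.52, 11.7 and 25.4 TPM and was above 1 TPM only. Of the enzymes that oxidise nicotinamide or its methylated product, Aox1 averaged 8.76 ± 0.366 TPM and was above 1 TPM, Aox3 and Aox4 were at 0 in at least 2 libraries, and Cyp2e1 was listed at 4.83, 0 and 0 TPM.

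Among the consumers, Parp2 was higher than Parp1. Both attach ADP-ribose chains to proteins at DNA breaks, and Parp1 is known as the main source of this activity in most cells. Parp2 (chromosome 14, 50807841 to 50821301, plus strand) had 18.0, 24.0 and 24.6 TPM. Parp1 (chromosome 1, 180568924 to 180601254, plus strand) had 4.86, 3.08 and 12.9 TPM. The ranges did not overlap, and the highest Parp1 library, replicate 3, stayed below the lowest Parp2 value. Parp1 was lower by a mean log2 difference of -1.91 ± 0.997 (SD, n = 3), a ratio of 0.267 in TPM + 0.1, in 3 of 3 libraries (exact sign-flip permutation p = 0.25, adjusted 0.4). Without replicate 3 the difference was -2.40 and without replicate 2 it was -1.40. Parp2 averaged 22.2 ± 3.64 TPM and was above 10 TPM (limma adjusted p = 0.00670). Parp1 averaged 6.94 ± 5.23 TPM and was above 1 TPM (limma adjusted p = 0.0163), a call that was lost without replicate 3 (0.165), and it was not decided at 10 TPM. Of the 31-base words in the longest transcript, 0.416% for Parp1 and 0% for Parp2 recur in another gene. The genes most similar to Parp2 over the 3 libraries were the adenosine kinase Adk at 17.3, 24.1 and 24.0 TPM (distance 0.0673) and Foxp1 at 18.6, 22.7 and 24.1 TPM (0.0947).

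**Figure D3:**
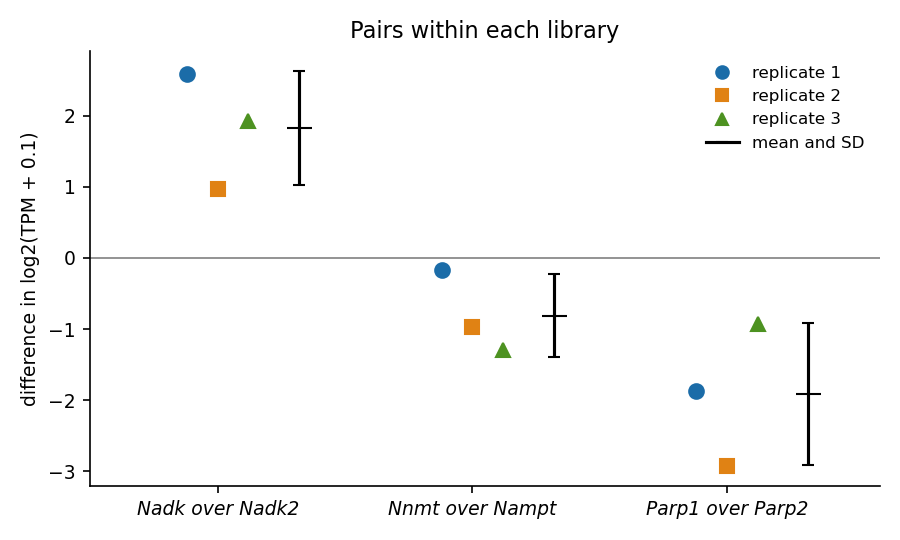
Difference in log2(TPM + 0.1) between the genes of a pair within each library, for the 3 pairs with no value at 0, with the mean and SD (n = 3) beside the points. Nadk lies above Nadk2 in every library, and Nnmt lies below Nampt and Parp1 below Parp2 in every library.

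Other members of the PARP family were measured in full. Of 14, 11 were above 1 TPM and 7 above 10 TPM, against 60.8% and 38.2% of all genes tested. The list median was 16.7 TPM, against 11.5 TPM over all genes tested. The highest were Tiparp, a mono-ADP-ribosyltransferase induced by the dioxin receptor, at 141 ± 19.3 TPM, Zc3hav1, an antiviral RNA-binding member without enzyme activity, at 131.5 ± 16.7 TPM, and the tankyrase Tnks2 at 80.0 ± 14.4 TPM. The genes that remove ADP-ribose were above 1 TPM in 5 of 6 cases and above 10 TPM in 4, beside the same shares over all genes. Neither list was compared with all genes by a test. The highest of the ADP-ribose removal list were the glycohydrolase Parg at 32.8 ± 4.996 TPM, Oard1 at 31.1 ± 12.4 TPM and Adprhl2 at 26.3 ± 6.73 TPM. Macrod2, at 0, 0 and 1.52 TPM, was the sixth and was named after its values were seen.

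The sirtuins, deacylases that consume NAD, divided into 2 high genes and 5 low ones. Of 7 tested, 3 were above 1 TPM and 2 above 10 TPM, against 60.8% and 38.2% of all genes tested. Sirt2, the mostly cytosolic form, averaged 130.2 ± 23.6 TPM and Sirt1, the nuclear form linked to the metabolic state of satellite cells in mouse, averaged 119 ± 13.9 TPM, both above 10 TPM. Sirt7, the nucleolar form, averaged 6.78 ± 3.39 TPM and was above 1 TPM. The mitochondrial forms were irregular: Sirt3 had 16.03, 0.27 and 0 TPM, Sirt4 had 4.8, 4.77 and 0 TPM, and Sirt5 had 0, 0.82 and 0 TPM. Sirt6, a nuclear form, was listed at 0, 0.67 and 0 TPM, and these 4 were not decided at 1 TPM (limma, Benjamini-Hochberg). For Sirt5, 41.0% of the 31-base words recur in another gene.

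Cd38 and Bst1, paralogous surface enzymes that split NAD into ADP-ribose products and nicotinamide, were each listed at 0 in at least 2 libraries. They lie next to each other on chromosome 5 of GRCm38 on the plus strand, Bst1 at 43818885 to 43843986 and Cd38 at 43868553 to 43912375, with 24566 bases between them. Cd38, known from leukocytes, was listed at 0, 0 and 3.06 TPM in replicates 1, 2 and 3 and was not decided at 1 TPM (limma adjusted p = 0.340). Bst1, known from marrow stroma and myeloid cells, was listed at 0 in every library and was not tested; Cd38 was the higher of the pair in 1 library (exact sign-flip permutation p = 1). Leukocyte markers summed to 262, 342.7 and 276 TPM in replicates 1, 2 and 3, and their part in the Cd38 value was not tested. The start of Bst1 overlaps Fbxl5 on the opposite strand over 2754 bases, and Fbxl5 had 37.9, 44.3 and 34.5 TPM. The strand setting of the counting is not given in the sources used here, so reads of the overlap cannot be assigned to a strand. Of 5 other NAD glycohydrolases and surface ADP-ribosyltransferases, 3 were tested and 1 was above 1 TPM, against 60.8% of all genes tested. It was Art3 at 9.02, 7.90 and 26.9 TPM, a member thought to lack enzyme activity. Sarm1, the NAD hydrolase of axon degeneration, was listed at 0, 0.82 and 1.95 TPM, Art4 at 5.56, 2.22 and 0 TPM, and Art1 and Art5 at 0 in every library.

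**Figure D4:**
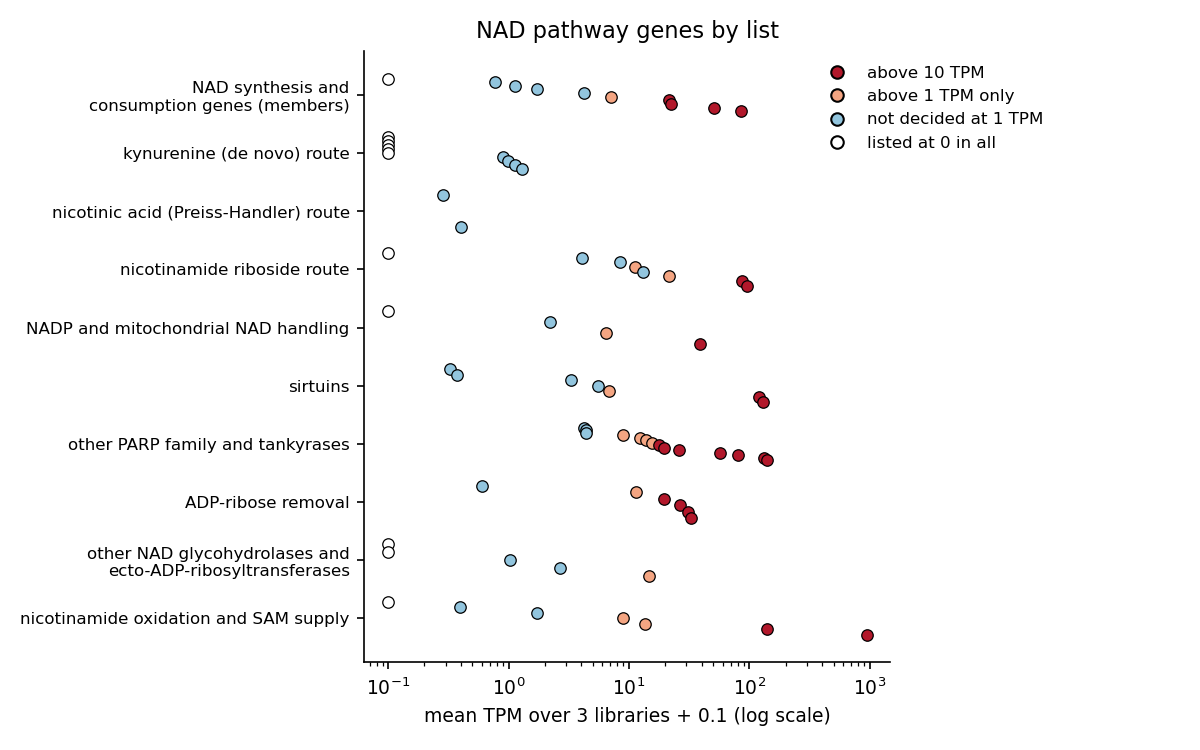
Mean TPM over 3 libraries + 0.1, on a log axis, for each gene of the 10 lists, 1 point per gene, coloured by its call against 1 and 10 TPM (limma, Benjamini-Hochberg). No gene of the kynurenine or nicotinic acid lists is called above 1 TPM, and those tested are not decided at 1 TPM. Of 14 other PARP family genes 11 are called above 1 TPM, against 60.8% of all genes tested. The lists were not compared by a test.

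In order of mean level, the members ran Nampt, Nnmt, Parp2, Nadk, Parp1, Nmnat3, Nmnat1, Cd38, Nmnat2 and Bst1. The ranges of neighbours did not overlap between Nampt and Nnmt, between Nnmt and Parp2, and between Nadk and Parp1. Parp2 and Nadk overlapped, with Parp2 the higher in 2 of 3 libraries, and so did each neighbouring pair from Parp1 down. Of the 62 other pathway genes with a row, 10 had a 0 in each library, as had 7486 of the 20308 symbols. Of the 52 tested, 30 were above 1 TPM and 18 above 10 TPM (limma, Benjamini-Hochberg), near the 60.8% and 38.2% over all genes, and the median of the 62 was 6.53 TPM. In the spread test, none of the 8 members with a mean of at least 1 TPM was variable between libraries (limma prior variance, F test, Benjamini-Hochberg), and 0 had an unadjusted p under 0.05. Over 11318 genes that test called 2 (0.0177%), with 629 at an unadjusted p under 0.05.

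**Figure D5:**
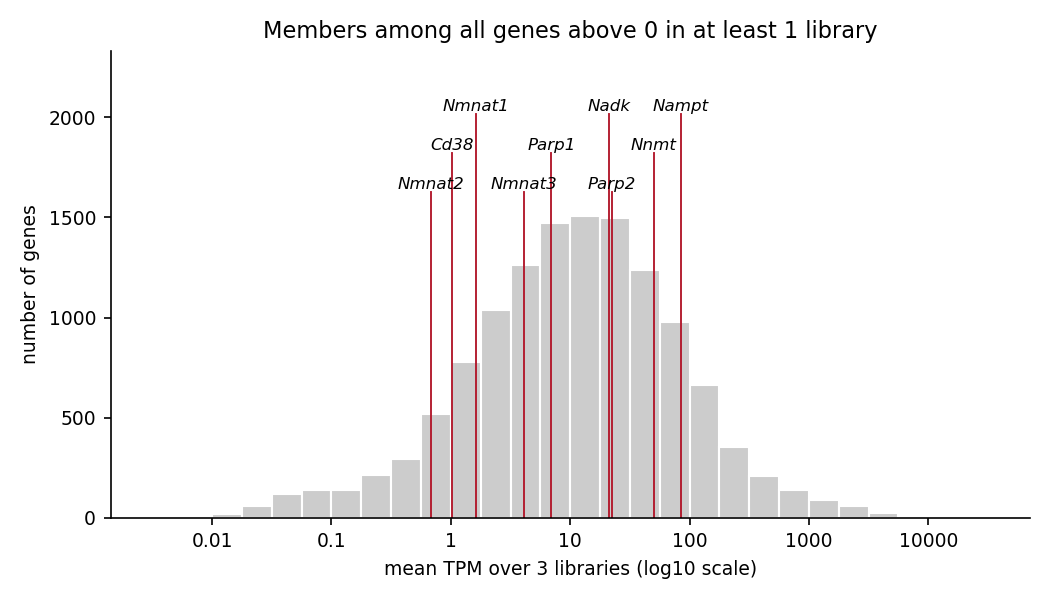
Number of genes by mean TPM (log axis) for the 12822 genes above 0 in at least 1 library, with red lines at the means of the 9 members above 0. Nampt and Nnmt lie in the upper part of the distribution, Parp2, Nadk and Parp1 near its middle, and the NMNAT genes and Cd38 in the lower part.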

How the data were processed

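RNA was taken from sorted ZsGreen-positive cells, and the 3 libraries were put in 1 group from their titles. Per the submitters' processing notes, CASAVA 1.8, RSEM 1.2.3 and Bowtie 0.12.9 were used with build mm10; the sources used here give neither their roles nor the gene annotation or strand setting. The authors deposited 1 table of TPM, whose name says that mitochondrial genes were removed and TPM renormalised, so values are relative to the remaining genes. Depth is unknown, and no counting interval is given.

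The level tests ran on log2(TPM + 0.1), which understates folds of low genes, with limma 3.58.1 in R 4.3.3 (intercept against 1 and 10 TPM, trended prior), for genes above 0 in at least 1 library. The fits were tested on simulated data modelled on genes above 0 in all 3 libraries. That simulation did not cover genes listed at 0 or calls below a level, and its outcome is not given here. It gave all genes not planted as variable 1 common spread. In the data the median log2 SD of genes near in level was 0.26 for Nampt and 0.86 for Parp1. The 8 pairs used exact sign-flip permutation tests. Alternatives were pseudocounts of 0.01 and 1, a mean of at least 0.1 TPM, no filter, median-ratio scaling, an untrended or robust prior and each replicate left out. Genes named were, by rule, all members, every gene of the lists of NAD-making routes, NADP handling and sirtuins, the 3 highest of each other list, and the 2 nearest genes of the 3 highest members; the other listed genes given were named after their values were seen, and the marker lists are summarised as sums. The members and lists were chosen with earlier results of these data known. The gene Nnt, on the NADP list, was not analysed here. Positions and shared 31-base words come from GENCODE M21 (GRCm38, the assembly of mm10), and upstream sequences from RefSeq (GRCm38.p6), in which 8 of the 10 members matched.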

Additional observations from a re-analysis of the deposited data

How the results depend on the processing

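The numbers of members above 1 TPM (5) and above 10 TPM (4) stayed at those values under both other pseudocounts, the filter on mean level, no filter (added after seeing the data), median-ratio scaling and the untrended prior. They ranged from 4 to 6 and from 3 to 4 with 1 replicate left out. Calls below a level depended on the processing, and the cause was not tested. Genes below 1 TPM numbered 279, but 3 and 451 with pseudocounts of 0.01 and 1, 0 with the mean filter, 8056 without a filter, 478 with an untrended prior and 0 with a replicate left out. Without a filter 1 member, Bst1, was below 1 TPM. Genes below 10 TPM numbered 2245, but 831 with a pseudocount of 0.01, 1371 with the mean filter, 9134 without a filter and 0 with a replicate left out. Members below 10 TPM numbered 3, but 0 with a pseudocount of 0.01, 1 with an untrended prior and 0 with a replicate left out; without a filter they were again 3, with Bst1 in and Nmnat1 out (limma adjusted p = 0.0562). Nmnat3 lay 0.49 below 1 TPM on the log2 scale (-0.49) with a pseudocount of 0.01, and between -0.58 and 2.50 with a replicate left out. Variable genes numbered 2, but 16 with a robust prior and 29 to 57 with a replicate left out; no member was among them in any setting. With a replicate left out, the log2 difference of Nmnat1 minus Nmnat2 ran from -2.21 to 2.81 and that of Cd38 minus Bst1 from 0 to 2.49. The other 6 pairs kept their direction. No paired analysis was possible because the 3 libraries form 1 group and no groups share replicate numbers; the gene pairs were set against each other within libraries. TPM without read totals sets no detection limit for the genes listed at 0.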
